A study of Homo sapiens with 6 samples.

Results

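Chromatin accessibility was examined at 7 genes for drug efflux pumps of the ATP-binding cassette (ABC) family, ABCB1, ABCG2, ABCC1, ABCC2, ABCC3, ABCC4 and ABCC5, which are 7 of the 20007 protein-coding genes annotated in GENCODE 44. A peak was assigned to a gene when it overlapped the gene body or lay within 10 kb of either end. The assay was ATAC-seq, in which the Tn5 transposase cuts and tags open DNA, so that a peak marks a stretch with more cuts than the background. The cells were SK-N-AS (SKNAS in the labels), a human neuroblastoma line that had been grown as xenografts in mice and then put back into culture. Naïve cells came from tumors of mice given vehicle. R1 and R2 cells came from tumors of mice given indisulam, a sulfonamide that binds the splicing factor RBM39 to the DCAF15 ubiquitin ligase so that RBM39 is degraded. Those tumors had relapsed a second time and were taken during the third course. The cultures were grown without further treatment, and each of the 3 had 2 libraries of 100000 cells. The sources do not say whether the 2 libraries are separate cultures, so the p-values may measure technical spread only, and with 1 line per resistant tumor, the line and the treatment cannot be told apart.

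ABC transporters use the energy of ATP to move molecules across membranes, and several of them carry drugs out of cells. ABCB1, known as P-glycoprotein, pumps many hydrophobic drugs, and ABCG2, the breast cancer resistance protein, pumps a partly overlapping set. The ABCC proteins named here are multidrug resistance-associated proteins that export organic anions, such as conjugates with glutathione or glucuronic acid. In neuroblastoma, ABCC1 is best known for its link with amplified MYCN and with poor outcome. The authors list SK-N-AS as lacking MYCN amplification and describe it as overexpressing C-MYC.

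The promoters of the 7 genes fell into several kinds. ABCC1, ABCC3, ABCC4 and ABCC5 had a peak within 1000 bp of the start of the canonical transcript in all 6 libraries, as 54.7% of protein-coding genes did. ABCC2, an exporter of the apical membrane of liver cells that carries bilirubin glucuronide, had none in any library, as did 14.4% of genes. ABCB1 had a promoter peak in both R1 libraries and in none of the other 4, a pattern that 7.33% of genes shared. ABCG2 was called at its promoter in both R1 libraries and in naïve 1. Of the 7 genes, 5 had a promoter peak in naïve 1 and 4 in naïve 2. Each R1 library had 6 and each R2 library 4. Among all protein-coding genes the share was 71.5% for naïve 1, 67.9% for naïve 2, 84.8% for R1 1 and 83.1% for R1 2. For R2 1 it was 61.2%, for R2 2 it was 62.2%. The share was thus highest in R1 for all genes as well, so these counts do not set the 7 genes apart.

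Depth differed between the libraries and limits what could be seen. The naïve lists held 115694 to 154926 peaks, the R1 lists 292030 to 340558 and the R2 lists 67558 to 73484. The background rate, the number of tags expected by chance at a site, was recovered from the spacing of the folds in each list. The p-values served as a check. The rate was 1.35 to 2.29 tags for naïve cells, 5.43 to 7.94 for R1 and 0.85 to 0.899 for R2. The smallest pileup with a call held 9 (naïve 1), 7 (naïve 2), 18 (R1 1), 14 (R1 2) or 6 tags (either R2 library). Values below are summit tags divided by this rate, called enrichment. The median enrichment over the 24147 regions with a peak in all libraries lay between 11.8 and 15.6 in every library. Of 11 markers of mesenchymal neuroblastoma, the type to which SK-N-AS is assigned, 6 had a promoter peak in all libraries, as had 7 of 10 adrenergic markers. None of 10 markers of blood, endothelial, epithelial, liver and pigment cells had one in all libraries, and 5 had none in any. Over all protein-coding genes, 54.7% had one in all libraries and 14.4% had none in any. The counts therefore do not tell the mesenchymal from the adrenergic type.

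Sequence upstream of the start differed between these genes. The stretches below were read from RefSeq promoter windows on GRCh38.p14, which is hg38, along the strand of the gene, and stop where an annotated untranslated exon begins, except for the short site. They come from a promoter called in R1 only, a promoter called in part of the libraries, a promoter without a peak and the promoter with the highest enrichment. Those calls are for the 1000 bp on either side of the canonical start, not for the printed bases. The longer ABCB1 stretch lies upstream of the R1 peak, which ends at 87601058. The ABCG2 stretch overlaps the R1 peaks but not that of naïve 1. Capitals mark motif matches on either strand, here to the CCAAT box, the AP-1 site (TGANTCA), the GC box (GGGCGG), the E-box (CACGTG), the TATA box (TATAAA) and the antioxidant response element (TGACNNNGC). The cAMP response element (TGACGTCA) was searched too and had no match in these windows. RefSeq windows were found for 5 of the 7 genes, and not for ABCC1 and ABCC3.
ABCB1, chr7:87601079-87601134, minus strand: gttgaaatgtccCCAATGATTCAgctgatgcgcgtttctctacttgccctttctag
ABCB1, site at chr7:87600949-87600973, minus strand: ggtgaggctgATTGGctgggcagga
ABCG2, chr4:88159025-88159159, minus strand: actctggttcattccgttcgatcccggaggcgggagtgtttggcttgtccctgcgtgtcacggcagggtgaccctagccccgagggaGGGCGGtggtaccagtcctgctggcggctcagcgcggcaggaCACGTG
ABCC2, chr10:99782390-99782639, plus strand: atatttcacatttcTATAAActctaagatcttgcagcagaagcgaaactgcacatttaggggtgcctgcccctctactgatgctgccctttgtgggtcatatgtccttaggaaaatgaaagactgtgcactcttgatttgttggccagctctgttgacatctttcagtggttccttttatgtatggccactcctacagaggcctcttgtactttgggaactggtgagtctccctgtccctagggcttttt
ABCC4, chr13:95301476-95301701, minus strand: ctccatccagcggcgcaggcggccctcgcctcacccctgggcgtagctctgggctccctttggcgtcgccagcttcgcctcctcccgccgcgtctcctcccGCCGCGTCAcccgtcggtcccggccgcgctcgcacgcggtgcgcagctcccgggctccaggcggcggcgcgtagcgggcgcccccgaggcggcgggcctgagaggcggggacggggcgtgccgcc

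In the whole 250 bases upstream of the canonical start, GC content was 80.4% with 42 CpG dinucleotides for ABCC4, 73.6% with 32 for ABCG2, 64.8% with 21 for ABCC5, 55.6% with 12 for ABCB1 and 45.6% with 1 for ABCC2. The median over 34943 such windows was 58% with 11. The ABCG2 stretch printed above belongs to another RefSeq start of that gene, at 88158909, whose window had a GC content of 71.2% with 27 CpG dinucleotides. The window of ABCB1 held 2 CCAAT matches, a motif found in 32% of windows, and an AP-1 match, found in 6.59%. The CCAAT and AP-1 matches in the longer ABCB1 stretch overlap, so their capitals run together. The single match of ABCC4 was to the antioxidant response element, found in 10.9% of windows, and that of ABCC2 to the TATA box, found in 10.8%. The GC box was found in 42.5% and the E-box in 6.32%.

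At ABCB1, the P-glycoprotein gene, the promoter peak spanned chr7:87600102-87601058 on hg38 and covered exons 1 and 2 of the canonical transcript, which starts at 87600884 on the minus strand. In R1 1 its summit held 105 tags, an enrichment of 13.2, and in R1 2 it held 57 tags, an enrichment of 10.5. The summits lay within 8 bp of the start. By p-value the peak ranked 13888 of 340558 and 20031 of 292030, percentiles 95.9 and 93.0 of the lists. Among the promoter peaks of the same libraries, its percentiles were 41.4 and 32.1, so it stood below the middle of the promoters that had a peak.

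**Figure D1:**
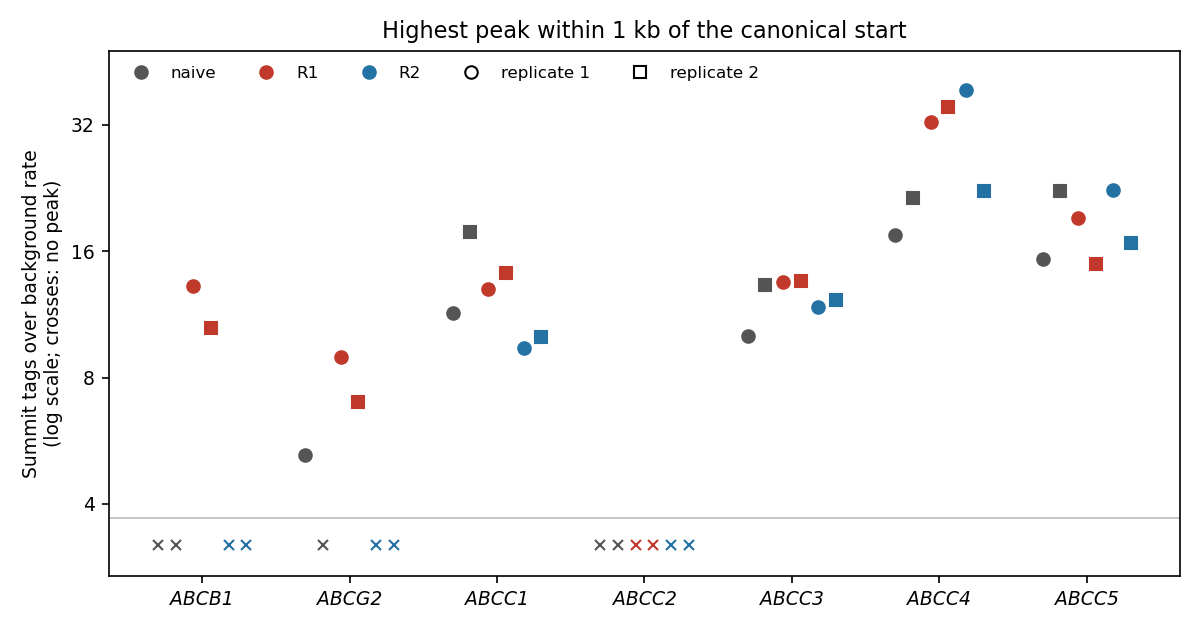
Enrichment (summit tags over the background rate, log scale) of the highest peak within 1 kb of the canonical start of each of the 7 genes, with a point for each library, colored by culture and shaped by replicate, and a cross where no peak was called. ABCB1 has points only for R1, at 13.2 and 10.5, ABCC2 has crosses only, and ABCC1, ABCC3, ABCC4 and ABCC5 have a point in all 6 libraries.

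The missing ABCB1 peak was compared with depth. At the enrichment seen in R1, 24.0 to 30.2 tags would be expected at this promoter in naïve 1, where the smallest pileup called held 9. For naïve 2 the expected number was 14.2 to 17.9 tags against 7. For the R2 libraries it was 8.92 to 11.2 and 9.43 to 11.9 tags against 6, a narrower margin. Of all protein-coding genes, 163 or 0.815% had a promoter peak in R1 alone with expected tags at or over the smallest pileup called in all 4 other libraries. There were 9851 genes with promoter enrichment of at least that of ABCB1 in R1, and 12 of them had no promoter peak in any other library. A pileup below the threshold is not zero, and more cells with an open promoter and a more open promoter per cell cannot be told apart in bulk libraries. No test was made of presence, since 2 libraries against 4 cannot give a one-sided exact p below 0.0667.

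**Figure D2:**
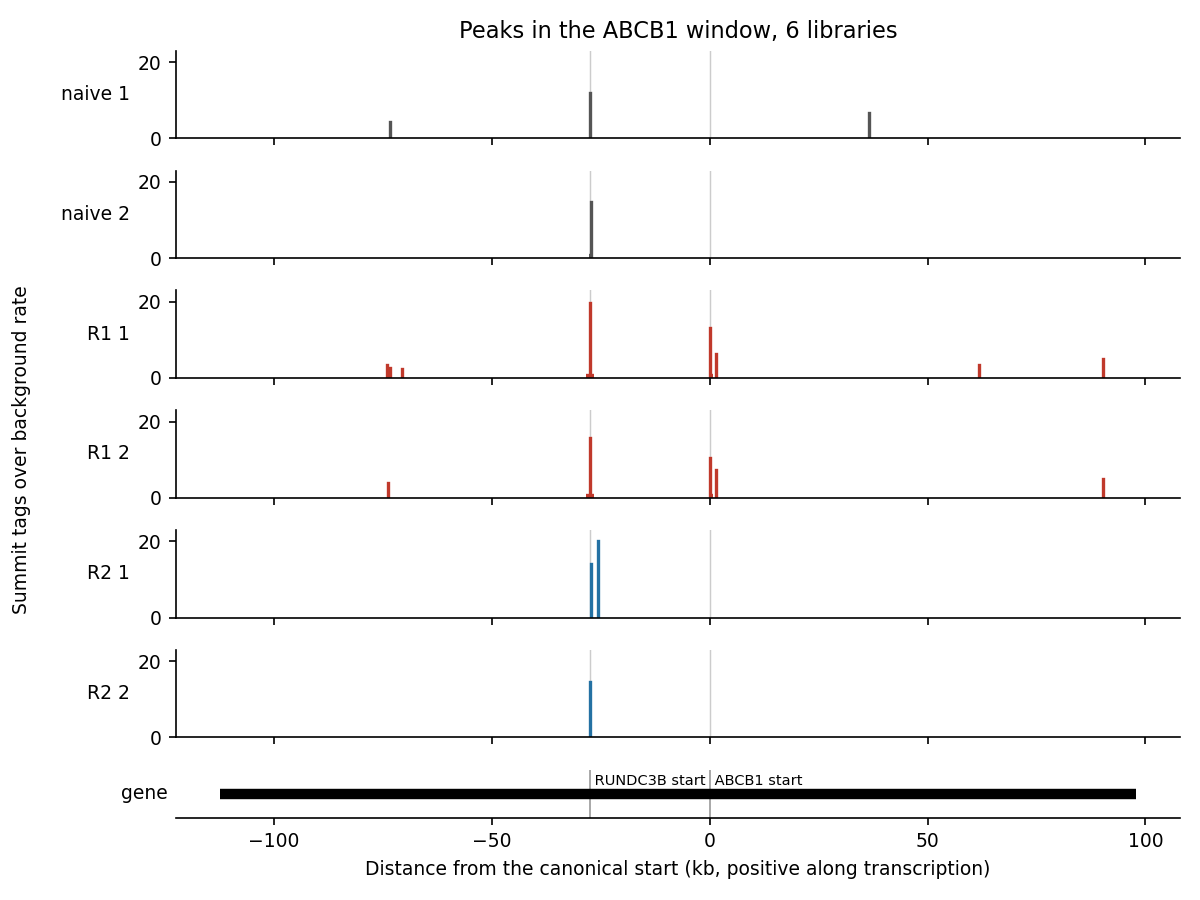
Peaks in the window of ABCB1 in each library, as distance from the canonical start (kb) against enrichment, with thin lines for summits, thick bars along the axis for peak width and a black bar for the annotated gene. A peak stands at the ABCB1 start in both R1 libraries only, while the peak at the start of RUNDC3B is present in all 6.

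The rest of the ABCB1 window, 230.307 kb long, was sparse. It held 10 regions, and 4 of them, the promoter included, were called in both R1 libraries and nowhere else, as 30% of all regions were. The region away from any annotated start with the highest percentile, averaged over the libraries that called it and called highest-ranked from here on, lay in intron 2, 1.43 kb after the start (chr7:87599317-87599592). It had 49 and 40 tags in R1, an enrichment of 6.17 and 7.36. For naïve 1 the expected 14.1 to 16.8 tags were above the 9 needed, and for naïve 2 the 8.34 to 9.94 were above 7. For R2 the expected 5.25 to 6.61 tags lay around the 6 needed, so absence there was not detectable. The transcripts of ABCB1 that start 112 kb upstream had no peak at their start in any library.

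The only region of this window with a peak in all libraries, chr7:87627524-87629238, lay at the start of RUNDC3B, a gene that starts inside the longer ABCB1 transcripts. Its enrichment was 11.8 and 14.8 (naïve), 19.8 and 15.8 (R1), and 14.1 and 14.5 (R2). On the log2 scale used for all tests, the quantile-normalized fold, it differed from naïve cells by 0.24 (SE 0.19) in R1 and -0.23 (SE 0.19) in R2, with adjusted p-values of 0.467 and 0.540 by limma. The only testable region near the ABCB1 promoter thus did not pass in either line.

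ABCG2 forms pumps from paired subunits and is known for carrying topoisomerase inhibitors. Its promoter peak at chr4:88158448-88159366 was weaker than that of ABCB1. The summit held 71 and 38 tags in R1, an enrichment of 8.94 and 6.99, and 12 tags in naïve 1, an enrichment of 5.25. The percentiles in the lists were 92.1 and 83.9 for R1 and 16.6 for naïve 1. No peak was called in naïve 2, where 7.09 to 12.1 tags were expected against 7, nor in R2, where 4.46 to 8.04 were expected against 6. A difference of R2 from the other cultures was therefore not detectable at this depth. No other region of the ABCG2 window, of 9 in all, was called in more than 2 libraries, and the start 72.7 kb upstream had no peak. The highest-ranked region away from a start, in intron 1 (chr4:88143560-88143759), was called in naïve 1 alone with 16 tags.

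ABCC1, the exporter of glutathione conjugates, had a promoter peak in all libraries, and it was lowest in R2. The region, chr16:15948761-15950072, covers exon 1. The naïve libraries had an enrichment of 11.4 and 17.8 from 26 and 24 tags, those of R1 13.0 and 14.2 from 103 and 77 tags, and those of R2 9.41 and 10.0 from 8 and 9 tags. The R2 values lay below those of the 4 other libraries. Among promoter peaks of the same library, ABCC1 stood at percentiles 41.3 and 59.6 (naïve) and 40.6 and 46.2 (R1), but at 1.45 and 5.16 in R2. Its level in R2 fell by 0.94 on the log2 scale against naïve cells (SE 0.22, limma adjusted p = 0.0443), while R1 differed by -0.18 (SE 0.22, adjusted p = 0.637). R1 against R2 gave 0.76 (SE 0.22), which did not pass after adjustment (adjusted p = 0.0622). The R2 call rests on 8 and 9 tags in peaks that do not overlap, with summits at 203 and -172 bp from the start, and it was lost when any of the 6 libraries was left out.

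The sequence around the ABCC1 summit of naïve 2, on the plus strand of hg38, is shown for the GC boxes in this promoter. It has 3 matches, and a GC box occurs in the same span around the summit in 28.9% of the 24147 regions. The last 11 bases lie in exon 1.
ABCC1, chr16:15949487-15949587: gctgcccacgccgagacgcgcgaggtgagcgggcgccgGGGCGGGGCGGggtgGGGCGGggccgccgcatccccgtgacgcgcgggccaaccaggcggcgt

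Within ABCC1, 2 further regions were called in all libraries, both in introns. The region in intron 5, chr16:16021543-16022541, was the highest-ranked away from a start, with an enrichment of 17.5 and 24.4 (naïve), 15.99 and 14.5 (R1), and 18.8 and 27.8 (R2). It differed from naïve cells by -0.61 (SE 0.22, adjusted p = 0.103) in R1 and -0.21 (adjusted p = 0.642) in R2. The region in intron 1, chr16:15998088-15998754, differed by 0.10 in both lines, with adjusted p-values of 0.810 and 0.821. The fall in R2 was thus called at the promoter and not at the other 2 regions, but the difference between regions was not tested. The 54 tested regions within 5 Mb of ABCC1 had a median difference of -0.11 in R2, and none of them was as low as its promoter. With the local median subtracted, the promoter differed by -0.87 and did not pass (adjusted p = 0.100).

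ABCC2 lacked a promoter peak, and none of the 8 regions in its window was called in more than 3 libraries. The highest-ranked away from a start, in intron 25 (chr10:99838946-99839178), had 56 and 42 tags in R1 and no call elsewhere. A flanking region 2.57 kb before the start (chr10:99779907-99780238) was called in both naïve libraries with 19 and 9 tags and in none of the resistant ones. In R1, 36.2 to 66.0 tags would have been expected there against 18 and 14, whereas in R2 the 5.66 to 7.47 expected lay around the 6 needed. The ABCC1 window also held 1 region called in both naïve libraries and in no resistant one. How common this pattern is over all regions was not counted, so neither region can be called unusual.

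ABCC3, an exporter of bile salts and glucuronides on the basolateral side of epithelia, had the most peaks for its length. Its window of 77.477 kb held 33 to 47 peaks in each library, and 9 of the 17 regions called in all libraries over the 7 genes lay in it. When each list was reduced to its 67558 best peaks, the ABCC3 window had 37.4 and 47.8 peaks per 100 kb (naïve), 25.8 and 23.2 (R1), and 42.6 and 40.0 (R2). All protein-coding windows together had 4.2 to 4.78 per 100 kb. Fewer peaks in R1 did not mean less covered sequence. In the region over the ABCC3 start, the naïve libraries had 13 and 15 peaks over 13772 and 10841 bp, R1 had 5 and 5 over 15945 and 16050 bp, and R2 had 10 and 10 over 4393 and 4472 bp.

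**Figure D3:**
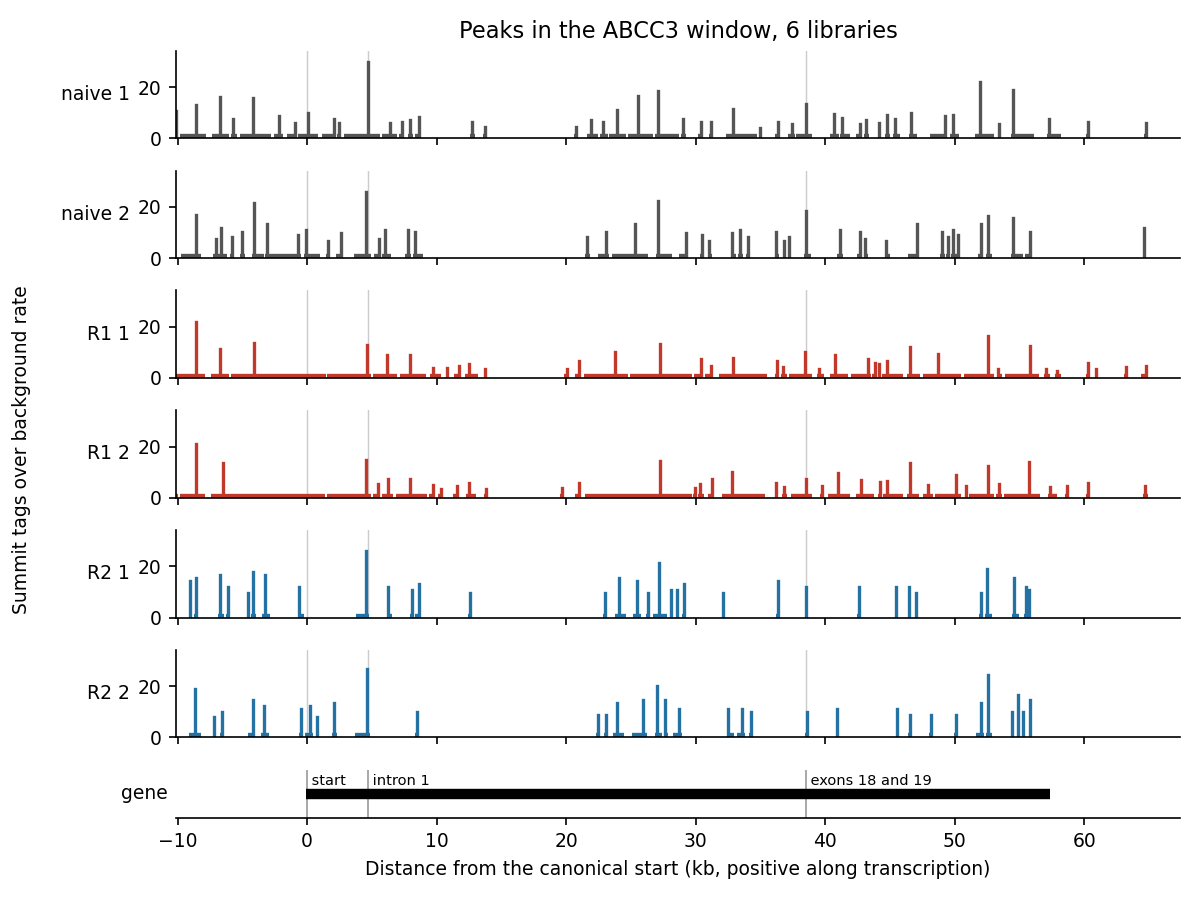
Peaks in the window of ABCC3 in each library, as distance from the canonical start (kb) against enrichment, with thin lines for summits and thick bars for peak width. The summit in intron 1 reaches 25.9 to 29.7 in the naïve and R2 libraries and 12.8 and 14.7 in R1.

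The region over the ABCC3 start was lower in R1. It spanned chr17:50627460-50644130 and included exon 1 and part of intron 1. Its highest summit lay in intron 1, between 4523 and 4663 bp after the start, in every library but R1 1, where a summit at -4140 bp, before the start, was slightly higher. The enrichment at the highest summit was 29.7 and 25.9 (naïve), 13.5 and 14.7 (R1), and 25.9 and 26.7 (R2). All naïve and R2 values were above both R1 values, and the intron 1 summit of R1 1 itself had 12.8 from 102 tags. The level in R1 fell by 1.12 on the log2 scale (SE 0.19, limma adjusted p = 0.00573), whereas R2 differed by -0.42 (SE 0.19, adjusted p = 0.232). The mean of both resistant lines fell by 0.77 (SE 0.16, adjusted p = 0.0215). In R1 against R2 the difference was -0.70 (SE 0.19, adjusted p = 0.0535). The highest peaks that overlapped the 1000 bp on either side of the start had an enrichment of 10.1 and 13.3 (naïve), 13.5 and 13.6 (R1), and 11.8 and 12.2 (R2), with a summit as far upstream as -6535 bp in R1 2. A fit over these promoter windows alone, added after the data had been seen, gave -0.12 for R1 (SE 0.21, adjusted p = 0.767).

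Further into the gene, 2 other ABCC3 regions passed. At chr17:50656228-50664576, over exons 3 to 10, the enrichment of the highest peak was 18.4 and 22.2 (naïve), 13.3 and 14.5 (R1), and 21.2 and 20 (R2), and R1 fell by 0.68 (SE 0.18, limma adjusted p = 0.0333). At chr17:50672007-50673883, over exons 18 and 19 and an alternative start, it was 13.6 and 18.5 (naïve), 10.2 and 7.18 (R1), and 11.8 and 10.0 (R2). Here every resistant library was below both naïve libraries. The fall was 0.87 in R1 (SE 0.21, adjusted p = 0.0263), 0.94 in R2 (SE 0.21, adjusted p = 0.0421) and 0.90 for both lines together (SE 0.18, adjusted p = 0.0189). The call at exons 18 and 19 passed in 6 of 11 alternatives in R1 and in 2 of 11 in R2, and that at exons 3 to 10 in 7 of 13. The other 6 ABCC3 regions did not pass in any comparison, among them the flanking region that ranked highest away from a start (chr17:50611230-50627053), at 0.21 in R1 and -0.13 in R2. Its highest summit lay at -23095 bp from the start in naïve 1 and at -14645 bp in R2 1, beyond the 10 kb limit. In the other libraries it lay between -8555 and -8644 bp, so these differences compare different summits. The summits of the 3 regions, on the plus strand with the same motifs in capitals, were those of naïve 1, naïve 2 and naïve 2.
ABCC3 intron 1, chr17:50639494-50639594: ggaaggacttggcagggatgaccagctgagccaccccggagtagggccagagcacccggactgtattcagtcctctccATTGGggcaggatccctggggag
ABCC3 exons 3 to 10, chr17:50661928-50662028: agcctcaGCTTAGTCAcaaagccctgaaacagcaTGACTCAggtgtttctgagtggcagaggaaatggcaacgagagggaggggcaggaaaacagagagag
ABCC3 exons 18 and 19, chr17:50673364-50673464: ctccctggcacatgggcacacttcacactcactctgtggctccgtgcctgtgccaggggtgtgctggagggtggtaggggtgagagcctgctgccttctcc

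The middle stretch of the 3 holds an AP-1 match, as 6.05% of the tested regions did in the same span, and an antioxidant response element match, as 6.32% did. The stretch from intron 1 holds a CCAAT match, as 14.2% did, and the last holds none of the motifs searched. The 258 tested regions within 5 Mb of ABCC3 had a median difference of -0.09 in R1 and -0.13 in R2. With the local median subtracted, the region over the start still passed in R1 (-1.03, limma adjusted p = 0.00893). In R1 the same subtraction left the region of exons 3 to 10 at -0.59 (adjusted p = 0.0823) and that of exons 18 and 19 at -0.77 (adjusted p = 0.0604), both short of the threshold. Over both lines the region of exons 18 and 19 still passed (-0.81, adjusted p = 0.0440). ABCC3 had the promoter-containing region with the widest range over libraries, 1.37 on the log2 scale. The promoters nearest to it in level over the 6 libraries, by Euclidean distance, were BTBD19 and DYNLT4, which share 1 region and lay at 0.176, and SGTA at 0.490.

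ABCC4, an exporter of cyclic nucleotides and prostaglandins, had the highest mean promoter enrichment of the 7 genes in each culture. The promoter region, chr13:95299633-95302470, reached 17.5 and 21.5 (naïve), 32.5 and 35.3 (R1), and 38.8 and 22.3 (R2). Every resistant value was above both naïve values, but after quantile normalization R2 2, at a level of 3.74, was below the naïve levels of 3.81 and 3.91. The difference was 0.60 (SE 0.22, adjusted p = 0.106) in R1 and 0.23 (SE 0.22, adjusted p = 0.601) in R2.

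In intron 1 of ABCC4 a region did rise. At chr13:95266993-95268763, 33.6 kb after the start, the enrichment was 6.12 and 12.6 (naïve), 18.9 and 20.1 (R1), and 23.5 and 36.7 (R2). All 4 resistant libraries were above both naïve libraries. The rise was 1.39 in R2 (SE 0.29, limma adjusted p = 0.0320) and 1.17 over both resistant lines (SE 0.25, adjusted p = 0.0220), and R1 differed by 0.95 (SE 0.29, adjusted p = 0.0577). Without naïve 1 the rise over both lines was 0.77 (limma adjusted p = 0.161), and its call was also lost without naïve 2, either R1 library or R2 2. The R2 call was lost without any of the 6. The sequence around the summit of R2 2 on the minus strand holds a CCAAT and an AP-1 match.
ABCC4 intron 1, chr13:95267779-95267879: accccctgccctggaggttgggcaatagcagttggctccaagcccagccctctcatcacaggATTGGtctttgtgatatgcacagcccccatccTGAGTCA

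The surroundings of ABCC4 rose as well. Of 35 tested regions within 5 Mb and outside its window, on the long arm of chromosome 13, 25 were called higher in the resistant lines and none lower, with a median of 0.75 (quartiles 0.51 and 0.92). The intron 1 region was matched or exceeded by 2 of the 35, and the ABCC4 promoter, at 0.42 over both lines, was below the median. With the local median subtracted, the intron 1 difference was 0.72 in R2 (limma adjusted p = 0.237) and 0.43 over both lines (adjusted p = 0.409), so the call was lost. What part the shift of the neighborhood has in the result was not tested further.

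**Figure D4:**
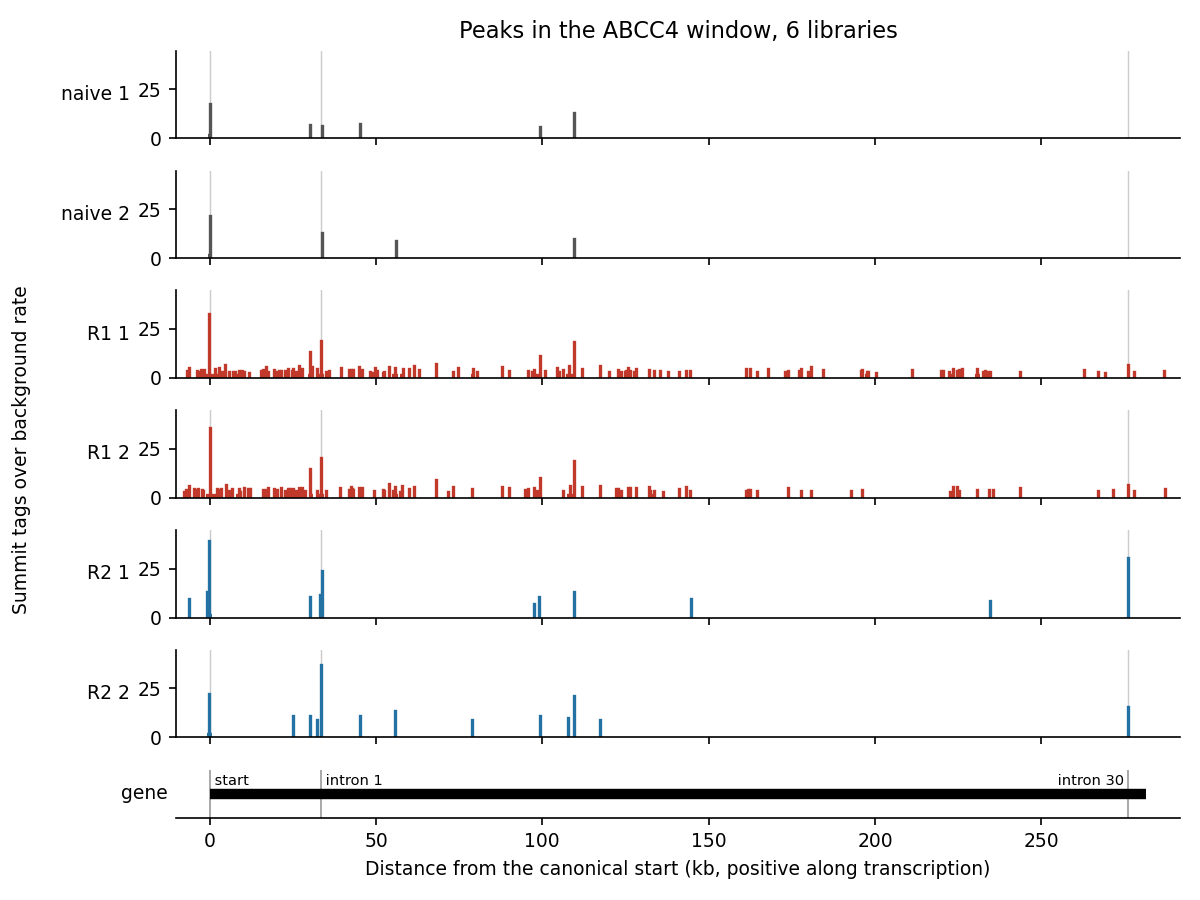
Peaks in the window of ABCC4 in each library, as distance from the canonical start (kb) against enrichment, with thin lines for summits. The summit in intron 1 is at 6.12 and 12.6 in naïve cells and at 18.9 or above in the 4 resistant libraries, and the summit in intron 30 is present in the resistant libraries only.

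Near its other end, ABCC4 had the only region of the 7 windows with a peak in all 4 resistant libraries and in neither naïve library, a pattern of 0.245% of all regions and of 1 of the 333 in these windows. It lies in intron 30 at chr13:95025101-95025576, 276 kb after the start. The summit held 51 and 35 tags in R1, 26 in R2 1 and 14 in R2 2, an enrichment of 6.42, 6.44, 30.6 and 15.6. Both R2 values were above both R1 values, but this order was fixed by depth. A pileup of 6 tags, the fewest called in R2, would already have a higher enrichment than either R1 value. Between 14.7 and 69.9 tags would be expected in naïve 1 against 9, and between 8.68 and 41.3 in naïve 2 against 7. Since a region must be called in all libraries to enter the fit, this region was not tested. The ABCC4 region away from a start with the highest mean percentile over the libraries that called it, in intron 4 (chr13:95233270-95233603), was called in R1 only, with 58 and 49 tags. In the same libraries the intron 1 region had 150 and 109 tags, and in R1 1 the intron 9 region had 146, since the mean favors regions called only in the long R1 lists.

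The ABCC4 window also had more peaks in the resistant lines. It held 6 and 4 peaks (naïve), 129 and 107 (R1), and 12 and 13 (R2), and 128 of its 144 regions were called in R1 alone, as 67.1% of all 373067 regions were. ABCC1, with 77 of 110, and ABCC5, with 14 of 19, were also called mostly in R1 alone. Among the 67558 best peaks of each list the counts were 4 and 4 (naïve), 13 and 11 (R1), and 12 and 13 (R2). At equal list length the R1 counts were thus close to those of R2.

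ABCC5, another exporter of cyclic nucleotides, had an open promoter without a called change. The region, chr3:184016786-184018414, had an enrichment of 15.3 and 22.2 (naïve), 19.1 and 14.9 (R1), and 22.3 and 16.7 (R2). The cultures overlapped. The differences were -0.31 (SE 0.21, limma adjusted p = 0.395) in R1 and -0.27 (SE 0.21, adjusted p = 0.513) in R2. No other region of its window was called in all libraries, and the highest by mean percentile away from a start, at exon 4 (chr3:183988388-183988700), was called in R1 1 alone with 37 tags. In that library a flanking region (chr3:183912974-183914066), also called in naïve 1 and R1 2, had more, 45 tags.

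Counted over all windows, 333 regions were found, of which 17 or 5.11% had a peak in all 6 libraries, against 6.47% of 373067 regions genome-wide. These 17 were the regions that could be tested. In R1 against naïve cells, none rose and 3 fell, where 11.6% of all tested regions were called, 5.56% up and 6.03% down. The absence of rises depended on the scaling, as median centring gave 2 up and 3 down, sample weights 2 and 4, and GC correction 1 and 2. In R2, 1 rose and 2 fell, where 3.37% were called, 2.26% up and 1.11% down. For both resistant lines together 1 rose and 2 fell, beside 7.86% called, 3.99% up and 3.86% down. In R1 against R2, limma called none of the 17, with 4 at an unadjusted p under 0.05 (22.3% of all regions), where 6.60% of all regions were called, 1.82% up and 4.78% down. In the alternative with sample weights 2 of the 17 were called. The median difference of the 17 was -0.18 in R1 and -0.23 in R2, beside 0.00 and -0.02 over all regions. Since 9 of the 17 lay in the ABCC3 window, these counts and medians weigh that locus most.

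**Figure D5:**
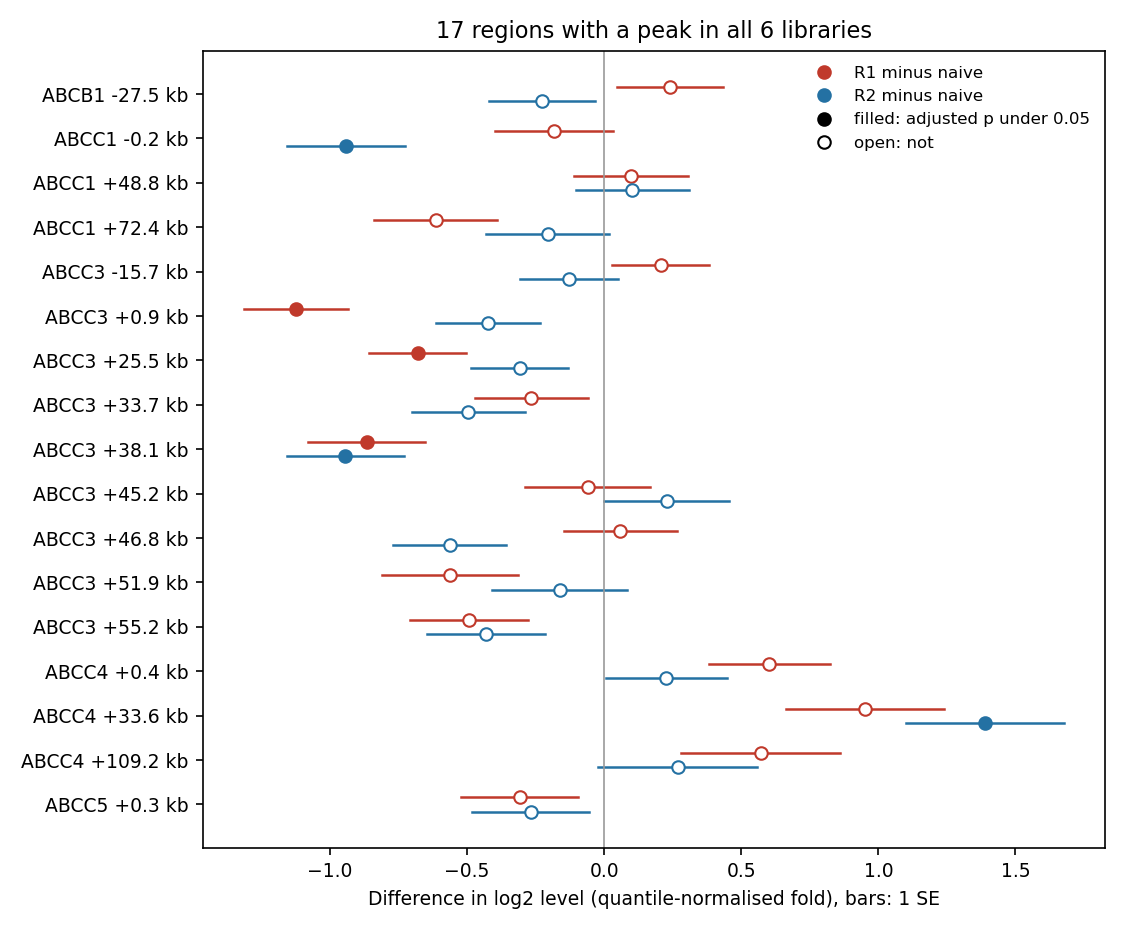
Difference from naïve cells (log2 of the quantile-normalized fold, bars of 1 SE) for R1 and R2 in the 17 regions of the 7 windows with a peak in all 6 libraries, named by gene and by the distance of the region's middle from the canonical start. Filled points passed an adjusted p of 0.05. They are 3 ABCC3 regions in R1 and an ABCC1, an ABCC3 and an ABCC4 region in R2.

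Regions at starts and away from them had different backgrounds. Counted per gene, so that genes with a shared region count each, 11318 protein-coding genes had a tested region over the canonical start, 4 of the 7 among them. In R1, the ABCC3 region fell through its intron 1 summit, as described above, and none of the 4 rose, where 8.01% of genes rose and 2.24% fell. In R2, ABCC1 fell and none rose, where 1.24% rose and 0.733% fell. None of the 4 was called in R1 against R2, where 3.02% were higher and 0.592% lower. By limma 2 of the 4 had an unadjusted p under 0.05, beside 22.3% of all tested regions. Of 14298 tested regions away from canonical starts, 12 belonged to the 7 genes. Among these 12, none rose and 2 fell in R1 (3.60% and 8.74% of all), 1 rose and 1 fell in R2 (2.90% and 1.37%), and 1 rose and 1 fell over both lines (3.13% and 5.28%).

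Spread between the libraries of a culture can also be seen without a fit. Of the 17 regions, 5 had both R1 levels above both naïve levels and 7 had both below, and 30.8% of all regions did so in each direction. For R2, 1 lay above and 9 below, beside 20.8% and 23.6%. Most of those 9 were neighboring regions of the ABCC3 window, so they are not independent members. In the order of mean promoter enrichment, ABCC4 was first and ABCC5 second in every culture. In naïve cells these genes overlapped, at 17.5 to 21.5 and 15.3 to 22.2. ABCC4 was clear of ABCC5 in R1, and in R2 the lower ABCC4 value lay just below the higher ABCC5 value.

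Genes around the pumps were read at their promoters. Of 41 other ABC genes, 19 had a testable promoter region. In R1, ABCE1, a ribosome recycling factor that is not a transporter, rose and ABCB8 and ABCC10 fell. Of all genes with a tested promoter region, 8.01% rose and 2.24% fell in R1. In R2 limma called none of the 19, where 1.24% of genes rose and 0.733% fell. Of the 19, 4 had an unadjusted p under 0.05 by limma, beside 21.0% of all tested regions. Over both resistant lines ABCE1 rose by 0.78 (SE 0.18, adjusted p = 0.0313), from levels of 3.51 and 2.98 in naïve cells to between 3.83 and 4.23 in the resistant libraries. ABCC10, a pump for taxanes, fell by 0.68 (SE 0.16, adjusted p = 0.0316), from 3.64 and 3.61 to between 2.75 and 3.14. In this comparison 4.97% of genes with a tested promoter region rose and 1.78% fell.

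Of 27 regulators of efflux genes, 23 could be tested, and over both lines FOXO3 and KAT2B rose and KEAP1 fell. KEAP1 holds back NRF2, the factor that acts on antioxidant response elements, and its promoter region fell by 0.69 (SE 0.14, limma adjusted p = 0.0210), from 4.56 and 4.62 to between 3.67 and 4.05. KAT2B, a histone acetyltransferase, rose by 0.76 (SE 0.17, adjusted p = 0.0287), and FOXO3, a forkhead factor, by 0.77 (SE 0.20, adjusted p = 0.0416). Over all genes with a tested promoter region, 4.97% rose and 1.78% fell in this comparison. In R1, KAT2B rose and NFYA, a subunit of the CCAAT-binding factor, fell, beside 8.01% and 2.24% of genes. In R2 KEAP1 alone was called, beside 1.24% up and 0.733% down. Of 19 genes of conjugation and glutathione metabolism, 14 could be tested, and NQO1, a quinone reductase, fell by 0.52 over both lines (SE 0.14, adjusted p = 0.0487). Of 19 uptake carriers, 8 could be tested, and limma called none in R1, R2 or both, with 2, 1 and 1 at an unadjusted p under 0.05.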

How the data were processed

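ATAC-seq peak lists of 6 libraries were used. The submitters' processing notes name BWA 0.7.12-r1039, Picard 1.65, SAMtools 1.3.1, MACS2 2.2.7.1 and bedtools 2.25.0. The authors shifted read ends and called peaks per library at a q of 0.01. The methods name hg19, but the coordinates fit hg38 in all 24 chromosomes. The deposited columns are a fold (a ratio over background), the −log10 of p-values and q-values, and the summit. Since a fold is tags plus 1 over the background rate plus 1, rates were solved from the spacing of the folds. Tags were then solved from fold and rate, and p-values were used as a check. Intervals from tags would cover counting error only.

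Overlapping peaks (1 base) were merged over libraries. The log2 fold of the highest peak was quantile-normalized over 24147 regions with a peak in all libraries and tested with limma 3.58.1 in R 4.3.3 (3 groups of 2, trend, Benjamini-Hochberg over all regions). This was tested on simulated data. Named are, for each gene, its promoter region, its highest-ranked region away from annotated starts and each region past the threshold, and, from other lists, the 2 largest rises and falls over both resistant lines among promoters past the threshold, with the 3 promoters nearest in level to the widest-ranging one. A few list genes called in 1 line were named after their values were seen. The 7 genes, the gene lists and the tests were chosen with earlier results of these data known. Replicate numbers did not pair the libraries (correlations -0.023 to 0.0553). Alternatives were other normalizations, filters, windows and ranks, left-out libraries, a replicate block and, added later, promoter windows.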

Additional observations from a re-analysis of the deposited data

Results flagged for a closer look

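In the ABCC4 region of intron 9 (chr13:95191764-95192757), 1 of the 4 libraries of cells from indisulam-treated tumors lay far from the others: the level was 3.54 and 3.60 in R1 and 3.67 in R2 2, but 2.87 in R2 1, and the gap to the nearest library was 0.842 of the whole range. The summit of R2 1 held 11 tags. A gap of this size occurs by chance in about 1 in 20 groups, and 17 regions were examined.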

How the results depend on the processing

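None of the 9 called differences changed sign under any alternative that kept the same regions, while 24 of the 59 other differences of the 17 regions did under 1 or more. With the local median subtracted, the ABCC4 promoter went from 0.60 to -0.19 in R1, from 0.23 to -0.44 in R2 and from 0.42 to -0.33 over both lines. The main counts of regions past the threshold, of 17, were 3 for R1 against naïve cells, 3 for R2 against naïve cells, 3 for both resistant lines against naïve cells and 0 for R1 against R2, given here in that order. Subtracting the local background gave 1, 0, 2 and 0. Median centring gave 5, 1, 3 and 1, sample weights 6, 1, 3 and 2, percentile ranks 3, 0, 2 and 1, and a correction for GC content 3, 2, 3 and 0. With fewer regions tested, a −log10 q of at least 5 gave 2, 1, 2 and 1 of 12, and the regions above the median level 3, 1, 2 and 1 of 11. Regions taken from the first R2 list in place of merged regions gave 4, 2, 1 and 2 of 31. Promoter windows alone, chosen after seeing the data, gave 0, 1, 1 and 0 of 4. In R1 against naïve cells the calls split into 2 up and 3 down with median centring, 2 and 4 with sample weights, 1 and 2 with GC correction and 1 and 3 with the replicate block, against 0 and 3. The replicate block gave 4, 3, 3 and 0, and the replicate numbers did not pair the libraries. The cause of these changes was not tested.

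Leaving out 1 library gave 0 to 5, 0 to 0, 0 to 3 and 0 to 2, with the lone library assumed to vary like the other groups. R1 against naïve cells had no call without R1 1, R1 2 or naïve 1, and 2 without naïve 2. Both lines together had none without either R1 or either naïve library. R2 against naïve cells had none without any of the 6 libraries.

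Peaks in the 7 windows averaged 76 (naïve), 258 (R1) and 57 (R2). Flanks of 50 kb gave 116 (naïve) and 99.5 (R2), lists cut to the shortest gave 48 (naïve) and 43 (R1), and the top 20000 peaks gave 18, 18 and 17. Single libraries ranged over 66 to 86, 227 to 289 and 56 to 58. Regions called in all libraries were 9 with the top 20000 peaks, 0 when a fraction of 0.5 of both peak and region had to be shared, and 19 to 20 without 1 library. With the top 20000 peaks, promoter peaks were found for 3 genes in naïve 1 and 2 in each R2 library. Among lists cut to the shortest, the mean promoter percentile was 74.9 for ABCB1, 46.8 for ABCG2, 71.1 for ABCC3 and 88.1 for ABCC5. The fall over the ABCC3 start in R1 passed in 10 of 13 alternatives (adjusted p 0.000417 to 0.0947, limma), the ABCC4 intron 1 rise over both lines in 7 of 13 (0.0046 to 0.409) and the ABCC1 fall in R2 in 2 of 11 (0.0314 to 0.146). The ABCC3 fall at exons 18 and 19 passed in 6 of 11 in R1 (0.0075 to 0.346), 2 of 11 in R2 (0.0376 to 0.150) and 7 of 11 over both lines (0.0103 to 0.129), and that at exons 3 to 10 in 7 of 13 (0.0121 to 0.351). These counts of alternatives and their ranges, here and above, leave out percentile ranks, which are on another scale. With percentile ranks the fall over the ABCC3 start in R1 passed (limma adjusted p = 0.0201). The ABCC4 intron 1 rise over both lines (adjusted p = 0.0599) and the ABCC1 fall in R2 (adjusted p = 0.0817) did not. In R2, where 6 tags were needed, several absences were not detectable at this depth.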
